A study of Mus musculus with 30 samples.

Results

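The comparison reported here is that of C2C12-pMirn378 cells with C2C12-pMirn0 cells after 3 days (d3) in differentiation medium without BMP2. It draws on 6 of the 30 arrays of the series, 3 of each line, chosen by the line, day and treatment that the sample labels give. C2C12 is an established mouse myoblast line that fuses into myotubes when serum is lowered, and that turns to a bone-like programme when bone morphogenetic protein 2 (BMP2) is added. Both lines were made by lentiviral transduction of C2C12 cells and by sorting for the copGFP marker of the vector. C2C12-pMirn378 cells carry a construct with the miR-378 precursor, and C2C12-pMirn0 cells carry the parent lentivector, so that the vector, the marker, the sort and the differentiation medium are shared by both. The other 24 arrays hold the same lines at the start of differentiation (d0), at d6 without BMP2, and after 3 and 6 days in medium that held BMP2 at 300 ng/ml, with 3 arrays in each group. Each line is 1 sorted population, and its 3 arrays in a group come from triplicate experiments. A change that comes from the miR-378 construct and any other difference between these populations cannot be told apart here. The p-values measure the spread between cultures of a line, estimated over all 10 groups of the series. The arrays read mRNA, so miR-378 itself was not measured on them. The study measured mature miR-378 by real-time PCR. It reported a higher level in C2C12-pMirn378 cells at d0 and, by a smaller factor, at d3 without BMP2.

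Myoblasts that differentiate leave the cell cycle before they fuse, and the genes of mitosis and DNA replication are then switched off together. In resting and differentiating cells this repression is known to run through the retinoblastoma family and the DREAM complex, which binds E2F sites and the cell cycle homology region, a short element near the start of many mitotic genes. A microRNA such as miR-378, which lies within an intron of *Ppargc1b*, pairs with sites in target mRNAs and lowers their stability or their translation.

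Expression was measured for 45101 probe sets on Affymetrix Mouse Genome 430 2.0 arrays, and values are given as the average expression value (AEV), the mean of 3 arrays on the linear intensity scale, ± SD with n = 3. The median of all values was 76.5, and the medians of the 6 arrays lay between 71.7 and 81.2. On the log2 scale, arrays of C2C12-pMirn378 cells correlated with each other at 0.951 to 0.953, those of C2C12-pMirn0 cells at 0.952 to 0.955, and arrays of different lines at 0.949 to 0.955. The 21695 probe sets (48.1%) whose group means both lay under 76.5 are called dim here. Probe sets whose mean over the 30 arrays lay under 76.5 had a median SD between cultures of 0.859 on the log2 scale. It was 0.149 for the others, with the SD taken over all 10 groups. Both lines carried the defining markers of differentiating muscle. *Myog* (myogenin, the transcription factor that commits myoblasts to fusion) had intensities of 19571, 19522 and 19426 in C2C12-pMirn378 cells, against 21813, 19625 and 20407 in C2C12-pMirn0 cells (log2 ratio -0.078, SE 0.075, adjusted p = 0.876). The arrays of the C2C12-pMirn378 cells lay just under those of the C2C12-pMirn0 cells, and the difference did not pass the test. *Ckm*, muscle creatine kinase, had 10305, 9427 and 10811 in C2C12-pMirn378 cells, against 8427, 8781 and 10452 in C2C12-pMirn0 cells, and its AEV at d0 was 385 in C2C12-pMirn378 cells and 484 in C2C12-pMirn0 cells. The log2 ratios of *Des*, *Myod1*, *Acta1*, *Myh3*, *Chrng* and *Cdh15* lay between -0.092 and 0.24, and none of the 8 markers passed the test, with adjusted p from 0.486 upward.

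At d3, C2C12-pMirn378 cells had higher levels of genes that drive mitosis and lower levels of genes for some proteins of the extracellular matrix and for a few secreted signals, while muscle genes stood close to those of C2C12-pMirn0 cells. A probe set was called where the adjusted p was under 0.005 and the log2 ratio (C2C12-pMirn378 over C2C12-pMirn0) lay beyond 0.6. By this rule 105 probe sets were called higher (0.233% of those tested) and 84 lower (0.186%). In each of these probe sets the 3 arrays of 1 line lay wholly above the 3 of the other, which held for 6590 of all 45101 probe sets. Of the called probe sets 6 higher and 6 lower ones were dim. The 105 higher probe sets include 87 genes with a probe set of their own and the 84 lower ones 61. Of the 87 higher genes 39 had several probe sets that were not dim, which all passed an adjusted p under 0.05 in 13 genes and held some of opposite sign in 2 (*Hmgb2* and *Prkd3*). Of the 61 lower genes 30 had several, which all passed in 7 genes and differed in sign in 3 (*Adamts16*, *Ccnd2* and *Htra3*). By 1 probe set per gene, the one with the highest mean over the 30 arrays, 77 of 18194 genes were called higher (0.423%) and 54 lower (0.297%). Of the 77 higher genes 37 belong to the lists of mitosis, DNA replication and G1 regulators and 0 to the matrix lists. Of the 54 lower genes 0 belong to the cell cycle lists and 8 to the matrix lists. *Ccnd2*, a G1 regulator, was called lower on 1 of its 7 probe sets, though not on the one read here. Of the 18194 genes the cell cycle lists hold 56, 51 and 29 and the matrix lists 23, 40 and 28. The lists were written with earlier results of these data known. In bulk RNA of this kind, more cells that express a gene and more RNA of it per cell cannot be told apart.

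**Figure D1:**
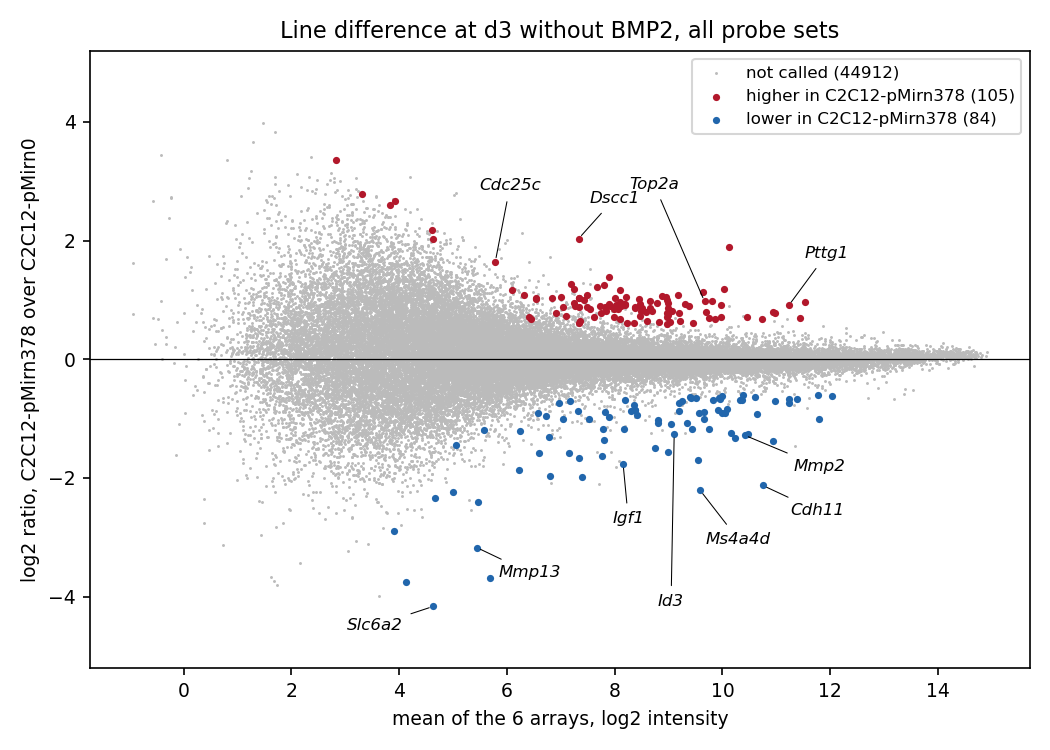
Log2 ratio at d3 without BMP2 (C2C12-pMirn378 over C2C12-pMirn0, vertical axis) against the mean log2 intensity of the 6 arrays (horizontal axis), with 1 point for each of the 45101 probe sets. Red points are the 105 probe sets called higher and blue points the 84 called lower in C2C12-pMirn378 cells; the scatter of the points that were not called widens towards low intensity.

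The mitotic genes were higher in C2C12-pMirn378 cells across most of their list. Of 56 measured genes of mitosis and the spindle, 43 were higher in C2C12-pMirn378 cells at an adjusted p under 0.05 and 0 lower, where 1.08% and 0.868% of all genes passed in these directions. Of the 56, 33 met the stricter call. All 56 log2 ratios lay above 0, between 0.035 for *Bub3*, a checkpoint protein, and 1.38 for *Ndc80*, a part of the outer kinetochore. Their median was 0.88, against 0.018 over all genes, of which 9766 of 18194 lay above 0. *Ndc80* was among the 13 members that did not pass, as were *Bub1b* and *Kif4*, and at an unadjusted p under 0.05 the count was 54 higher and 0 lower. Summed over the 56 genes, the intensity was 30710, 26540 and 27190 in C2C12-pMirn378 cells, against 16350, 15690 and 18820 in C2C12-pMirn0 cells. The lowest sum of the C2C12-pMirn378 cells was above the highest of the C2C12-pMirn0 cells. The first replicate of the C2C12-pMirn378 cells was the highest of the 3 in 42 of the 56 genes.

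Promoter stretches of 8 of these genes are given to show the letters of the cell cycle homology region, TTTGAA, near the start sites of genes that stood higher together. They are 30 bases long, from the RefSeq promoters of GRCm38.p6, 5′ to 3′ on the strand of the gene, with the match in capitals (TTTGAA, or TTCAAA where the match is on the other strand). The matches begin between 29 bases before and 31 bases after the start site:
Ccnb2 (chr9:70421533-70421562, gene on the minus strand): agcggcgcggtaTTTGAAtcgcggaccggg
Cdc20 (chr4:118437344-118437373, gene on the minus strand): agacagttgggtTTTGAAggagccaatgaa
Cdk1 (chr10:69352910-69352939, gene on the minus strand): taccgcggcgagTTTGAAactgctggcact
Cenpa (chr5:30666890-30666919, gene on the plus strand): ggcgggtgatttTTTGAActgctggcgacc
Plk1 (chr7:122159453-122159482, gene on the plus strand): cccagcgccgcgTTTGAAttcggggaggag
Top2a (chr11:99024195-99024224, gene on the minus strand): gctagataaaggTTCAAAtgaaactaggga
Ttk (chr9:83834684-83834713, gene on the plus strand): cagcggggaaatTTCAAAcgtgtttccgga
Ube2c (chr2:164769888-164769917, gene on the plus strand): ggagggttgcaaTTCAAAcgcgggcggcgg
Of the 37 called cell cycle genes 32 had a promoter of 250 bases before to 50 bases after the start in that table. Searched on both strands, TTTGAA was in 21 of these 32 (65.6%) and in 4893 of all 27025 promoters (18.1%). CCAAT, the letters of the NF-Y box, were in 23 of the 32 (71.9%) and in 10248 of all (37.9%). The E-box letters CANNTG, which myogenic factors bind, were in 20 of the 32 (62.5%) and in 19498 of all (72.1%). These shares are counts of letters, not of bound sites. The 32 genes were taken from lists of cell cycle genes, and members that were not called were not counted apart. The shares thus describe this class of genes, and their relation to the difference at d3 was not tested.

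Among the genes of mitotic entry, *Cdc25c*, the phosphatase that activates the mitotic kinase, had intensities of 111, 93.6 and 88.9 in C2C12-pMirn378 cells, against 23.6, 30.6 and 41.9 in C2C12-pMirn0 cells (log2 ratio 1.64, SE 0.20, adjusted p = 4.02e-05). Its values in C2C12-pMirn0 cells lay under the median of all values, and its log2 ratio was 0.96 when values under 50 were set to 50. *Ccnb2*, a B-type cyclin that partners with the same kinase, had 744, 629 and 687 in C2C12-pMirn378 cells, against 306, 288 and 393 in C2C12-pMirn0 cells (log2 ratio 1.07, SE 0.13, adjusted p = 3.51e-05). Its lines did not overlap, and 1 array of the C2C12-pMirn0 cells stood above the other 2. *Cdk1*, the kinase itself, had a log2 ratio of 0.69, adjusted p = 7.70e-05, *Plk1* one of 0.88, adjusted p = 9.95e-04, and *Aurka*, the kinase of the spindle poles, one of 0.93, adjusted p = 4.31e-04. *Mki67*, the gene of the proliferation antigen Ki-67, had 1041, 779 and 734 in C2C12-pMirn378 cells, against 435, 357 and 406 in C2C12-pMirn0 cells (log2 ratio 1.08, SE 0.13, adjusted p = 2.57e-05). *Top2a*, the topoisomerase that untangles chromosomes, had 1306, 1078 and 1051 in C2C12-pMirn378 cells, against 534, 585 and 624 in C2C12-pMirn0 cells (AEV of 1145 ± 140 in C2C12-pMirn378 cells and 581 ± 45.0 in C2C12-pMirn0 cells; log2 ratio 0.97, SE 0.092, adjusted p = 1.53e-06). For both genes replicate 1 of the C2C12-pMirn378 cells was the highest array, and the remaining arrays of that line still lay above all of the other line.

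The spindle checkpoint and the kinetochore were covered by several called genes. *Bub1*, a checkpoint kinase, had intensities of 462, 377 and 449 in C2C12-pMirn378 cells, against 206, 192 and 221 in C2C12-pMirn0 cells (log2 ratio 1.06, SE 0.11, adjusted p = 6.67e-06). *Ttk*, which acts above it, had 265, 222 and 201 in C2C12-pMirn378 cells, against 99.1, 92.7 and 90.7 in C2C12-pMirn0 cells (log2 ratio 1.28, SE 0.15, adjusted p = 2.83e-05). For both kinases the lowest array of the C2C12-pMirn378 cells lay well above the highest of the C2C12-pMirn0 cells. *Mad2l1*, which holds back anaphase, had a log2 ratio of 0.90, adjusted p = 1.27e-04, and *Cenpa*, the histone of the centromere, one of 1.05, adjusted p = 1.52e-05. Of the regulators of mitotic exit, *Cdc20*, the activator of the anaphase-promoting complex, had 821, 707 and 768 in C2C12-pMirn378 cells, against 424, 396 and 528 in C2C12-pMirn0 cells (log2 ratio 0.78, SE 0.089, adjusted p = 2.02e-05). *Ube2c*, the ubiquitin-conjugating enzyme of that complex, had a log2 ratio of 1.13, adjusted p = 1.53e-04, *Pttg1*, securin, one of 0.91, adjusted p = 8.09e-06, and *Fbxo5*, an inhibitor of the complex, one of 1.09, adjusted p = 1.27e-04. Activators and inhibitors of anaphase were thus higher alike. *Birc5*, survivin, a subunit of the chromosomal passenger complex, had 693, 479.6 and 556 in C2C12-pMirn378 cells, against 264, 299.5 and 302 in C2C12-pMirn0 cells (log2 ratio 0.98, SE 0.11, adjusted p = 1.07e-05), and *Cdca8*, the borealin subunit of the same complex, was called on each of its 3 probe sets, with log2 ratios from 0.89 to 1.25.

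**Figure D2:**
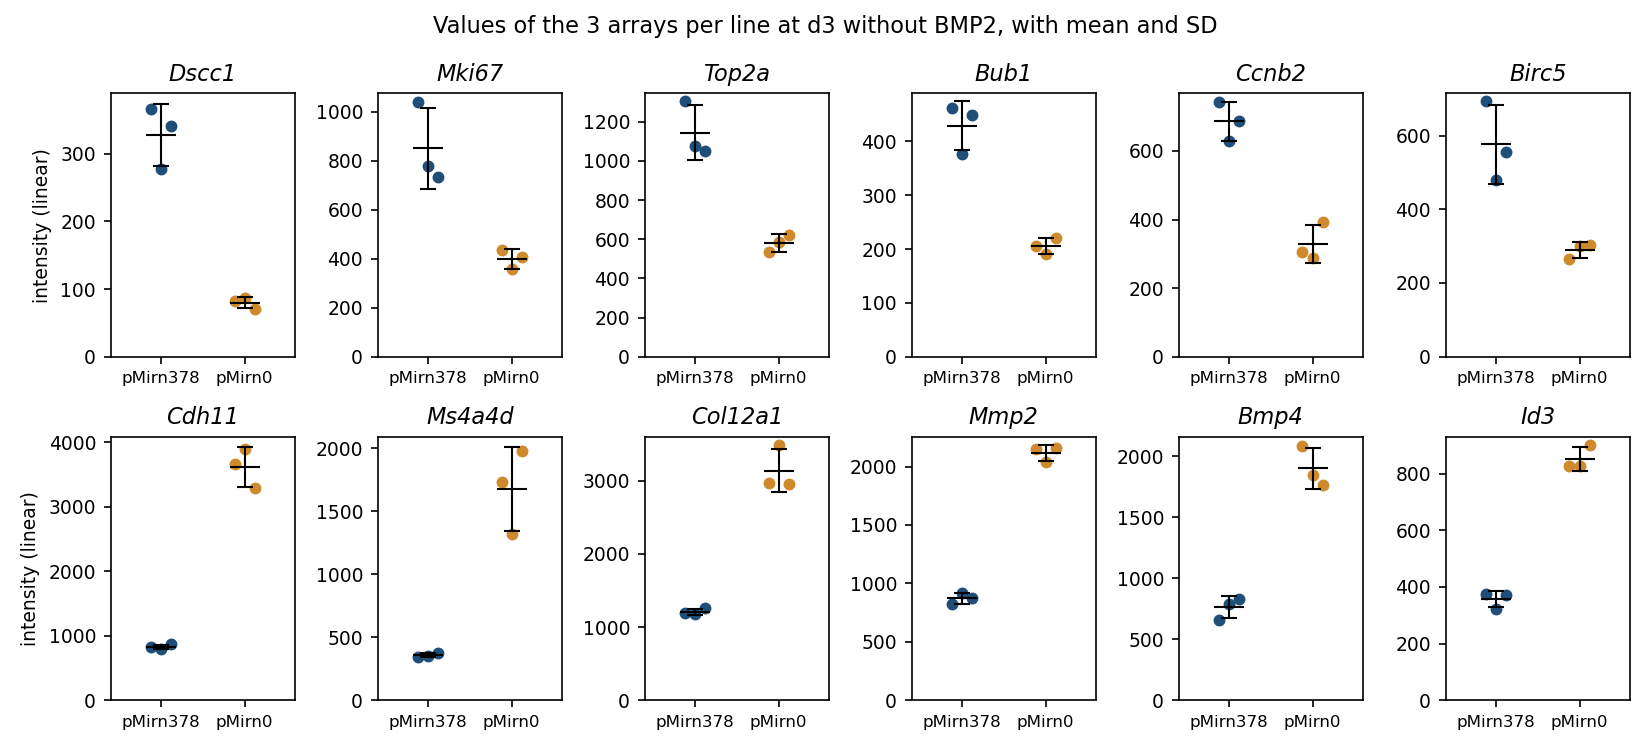
Linear intensity (vertical axes, starting at 0) of the 3 arrays of each line at d3 without BMP2 for 12 genes, 6 called higher (top row) and 6 called lower (bottom row) in C2C12-pMirn378 cells. Points are arrays, the long bar is the mean and the whiskers are the SD; in every panel the C2C12-pMirn378 arrays (left) and the C2C12-pMirn0 arrays (right) do not overlap.

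Genes of DNA replication differed less. Of 51 measured members 12 were higher at an adjusted p under 0.05 and 0 lower, 3 were called, and the median log2 ratio was 0.35. *Dscc1*, a subunit of the clamp loader that joins sister chromatids during replication, stood apart from the rest of the list, with 366, 277 and 340.4 in C2C12-pMirn378 cells, against 82.7, 86.6 and 70.3 in C2C12-pMirn0 cells (log2 ratio 2.03, SE 0.14, adjusted p = 9.96e-09). *Tk1*, the thymidine kinase of S phase, had an AEV of 290 ± 30.8 in C2C12-pMirn378 cells and 156 ± 18.6 in C2C12-pMirn0 cells (log2 ratio 0.89, SE 0.12, adjusted p = 2.10e-04), and *Mcm5*, of the replicative helicase, an AEV of 176 ± 14.8 in C2C12-pMirn378 cells and 107 ± 16.5 in C2C12-pMirn0 cells (log2 ratio 0.73, SE 0.13, adjusted p = 0.00344). *Mcm5* was not called in 5 of the 6 fits that left out 1 array, but passed the wider threshold in each. *Uhrf1*, *Gmnn* and *Pole2* passed the wider threshold with log2 ratios of 0.82, 0.56 and 0.45. Of 29 regulators of G1 and the E2F family, 4 were higher and 1 lower. *Ccna2*, the cyclin of S phase and early mitosis, was the called member, with a log2 ratio of 0.87, adjusted p = 4.32e-04. *E2f7*, a repressor of E2F targets, had 0.55, adjusted p = 0.0211, and *Rbl1*, the p107 pocket protein, 0.45, adjusted p = 0.0415. The D-type cyclins went opposite ways, *Ccnd1* with 0.36, adjusted p = 0.0137 and *Ccnd2* with -0.54, adjusted p = 0.00294. The count of 12 replication genes came to 5 without replicate 1 of the C2C12-pMirn378 cells and to 7 without replicate 1 of the C2C12-pMirn0 cells. The count of 4 higher G1 regulators came to 1 without replicate 3 of the C2C12-pMirn0 cells or replicate 1 of the C2C12-pMirn378 cells, and to 2 without replicate 1 or 2 of the C2C12-pMirn0 cells or replicate 3 of the C2C12-pMirn378 cells.

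**Figure D3:**
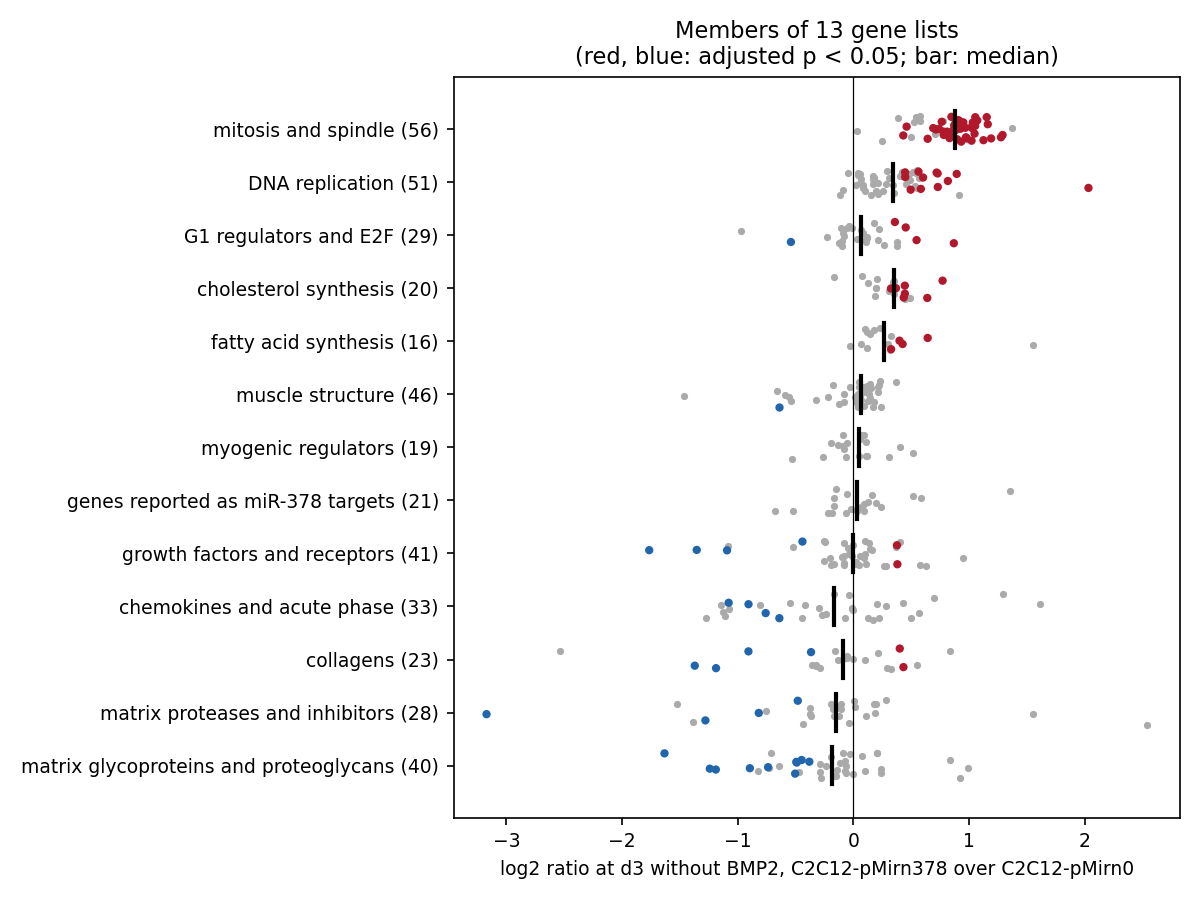
Log2 ratios at d3 without BMP2 (horizontal axis, C2C12-pMirn378 over C2C12-pMirn0) of the measured members of 13 gene lists (rows, with the number of members). Each point is 1 gene by 1 probe set, red where higher and blue where lower at an adjusted p under 0.05, and the black bar is the median; the points of mitosis and spindle all lie right of 0, with a median of 0.88.

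Before differentiation, no mitotic gene passed the test between the lines. At d0 the median log2 ratio of the 56 genes was 0.014, 32 lay above 0, and 0 passed an adjusted p under 0.05 in either direction in limma (0 higher and 1 lower at an unadjusted p under 0.05), where 1.06% of all genes were higher and 2.36% lower. At d6 the median was 0.44, 54 of 56 lay above 0 and 7 were higher and 0 lower at that threshold (0.841% and 0.302% of all genes). At d3 with BMP2 the median was 1.82, and 54 of 56 were higher and 0 lower, where 8.47% of all genes were higher and 7.81% lower. At d6 with BMP2 the median was -0.13, 12 of 56 lay above 0, and 0 were higher and 6 lower, where 5.79% of all genes were higher and 4.92% lower. These 4 comparisons rest on other arrays than the comparison at d3 without BMP2. In both lines these genes stood lower at d3 than at d0, with a median log2 ratio of d3 over d0 of -2.64 in C2C12-pMirn378 cells and -3.56 in C2C12-pMirn0 cells. In C2C12-pMirn0 cells from d0 to d6, all 56 fell at an adjusted p under 0.05, with a median of -3.21 (22.6% of all genes fell). *Top2a* had an AEV of 7258 ± 31.5 in C2C12-pMirn378 cells and 7348 ± 301 in C2C12-pMirn0 cells at d0 and of 1009.8 ± 110.5 in C2C12-pMirn378 cells and 766 ± 62.8 in C2C12-pMirn0 cells at d6. *Ccna2* had 5063 ± 198 in C2C12-pMirn378 cells and 4828 ± 112 in C2C12-pMirn0 cells at d0, 695 ± 144 in C2C12-pMirn378 cells and 376 ± 26.5 in C2C12-pMirn0 cells at d3, and 696 ± 138 in C2C12-pMirn378 cells and 521 ± 23.4 in C2C12-pMirn0 cells at d6. For both genes the level at d3 in the C2C12-pMirn378 cells was a small part of that at d0. *Dscc1* went another way, with 1081 ± 58.8 in C2C12-pMirn378 cells and 1578 ± 110.2 in C2C12-pMirn0 cells at d0, where it was lower in C2C12-pMirn378 cells (log2 ratio -0.55, adjusted p = 0.0305), and 182 ± 27.3 in C2C12-pMirn378 cells and 106 ± 9.38 in C2C12-pMirn0 cells at d6, where it was higher (0.78, adjusted p = 0.00535).

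**Figure D4:**
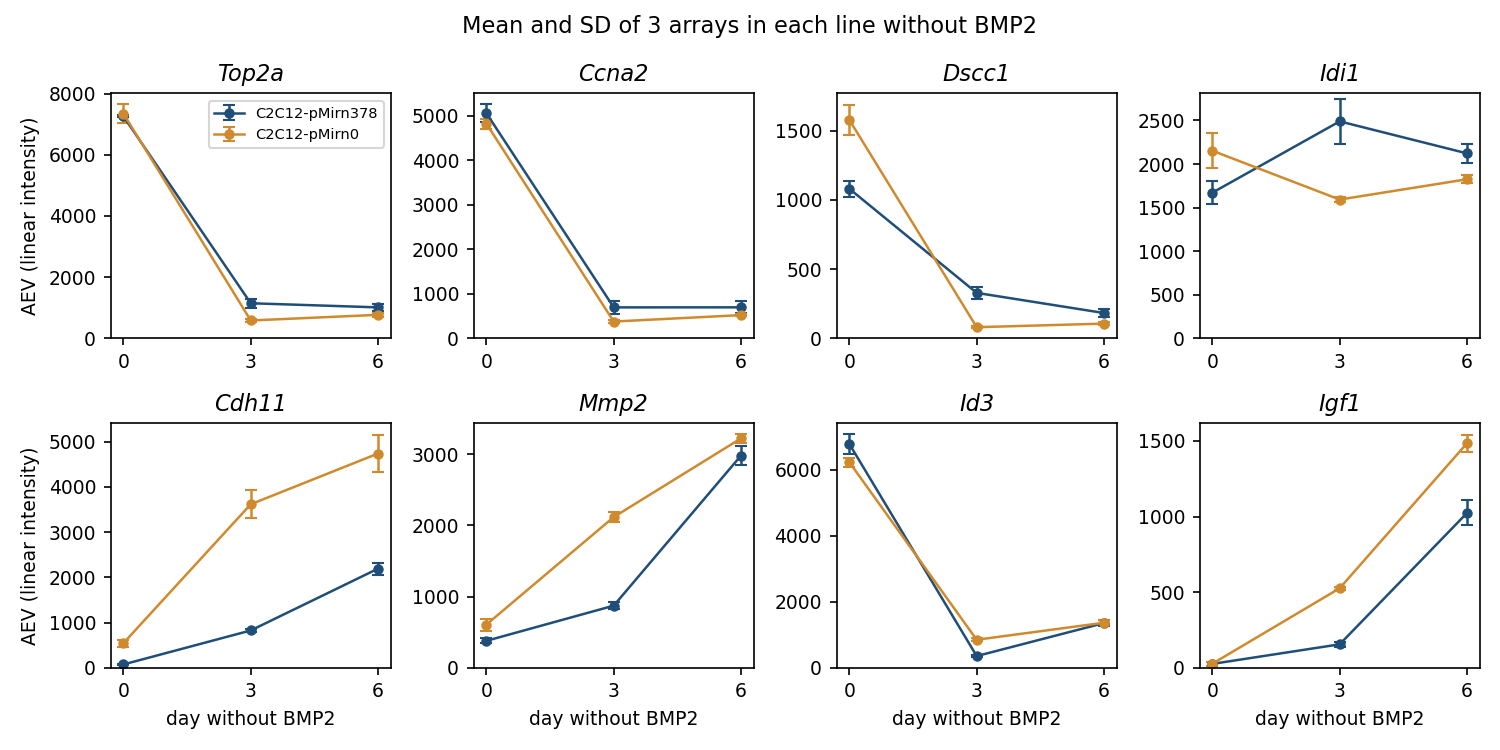
AEV on the linear intensity scale (vertical axes, starting at 0) at d0, d3 and d6 without BMP2 for 8 genes, in C2C12-pMirn378 cells (blue) and C2C12-pMirn0 cells (orange), as mean ± SD of 3 arrays. *Top2a*, *Ccna2* and *Id3* are lower at d3 than at d0 in both lines, *Cdh11*, *Mmp2* and *Igf1* are higher at each later day, and the lines stand apart at d3 in all 8 panels.

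The 105 probe sets called higher at d3, as a set, had a median log2 ratio of 0.027 at d0, 0.47 at d6 and 1.59 at d3 with BMP2, but -0.15 at d6 with BMP2. On the arrays of d6, 30 of them were higher and 1 lower at an adjusted p under 0.05 (0.612% of all probe sets were higher), and at d3 with BMP2 86 were higher and 5 lower (5.48% of all were higher). At d6 with BMP2, 7 of them were higher and 18 lower (3.76% and 3.57% of all probe sets). In C2C12-pMirn0 cells 95 of the 105 fell and 6 rose from d0 to d6, where 20.7% of all probe sets fell and 16.3% rose. The 84 probe sets called lower had medians of -0.50 at d0, -0.23 at d6 and -0.40 at d3 with BMP2, but 0.03 at d6 with BMP2, and in C2C12-pMirn0 cells 71 of them rose and 9 fell from d0 to d6. Of these 84, 42 were already lower and 6 higher at d0 (1.92% of all probe sets were lower there), 20 were lower and 0 higher at d6 (0.217%), 40 were lower and 10 higher at d3 with BMP2 (6.01%), and 19 were lower and 24 higher at d6 with BMP2. A line difference at d0 was thus present for many of the lower probe sets and for few of the higher ones, of which 1 was higher and 3 were lower at d0 (1.47% of all probe sets were higher there).

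**Figure D5:**
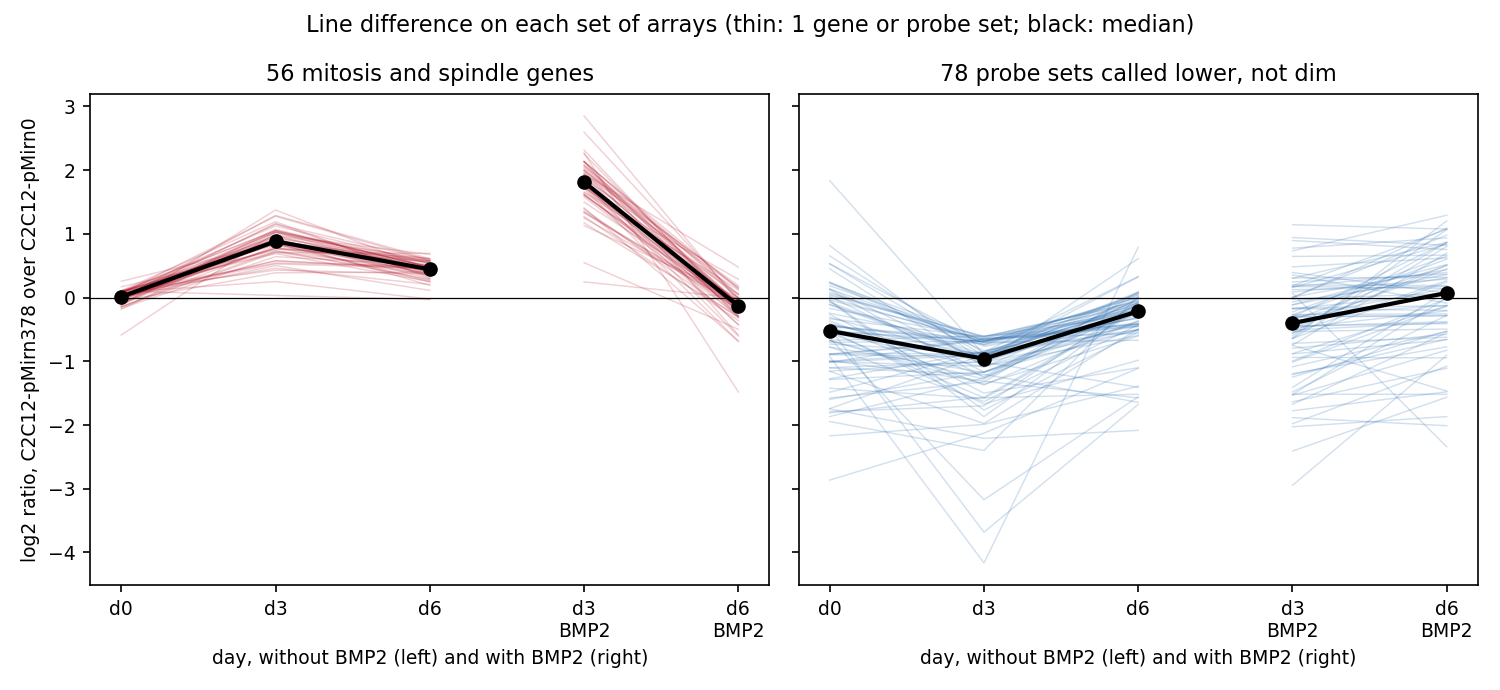
Log2 ratio of C2C12-pMirn378 over C2C12-pMirn0 (vertical axis) at d0, d3 and d6 without BMP2 and at d3 and d6 with BMP2 (horizontal axis) for the 56 mitosis and spindle genes (left) and for the 78 probe sets called lower at d3 without BMP2 that are not dim (right). Thin lines are single genes or probe sets and black points are medians; the mitotic genes start at a median of 0.014, reach 0.88 at d3 and stand at 0.44 at d6 without BMP2.

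Genes of the extracellular matrix made up 8 of the 54 genes called lower, while the matrix lists hold 40, 23 and 28 of all 18194 genes. Of 40 measured matrix glycoproteins and proteoglycans 10 were lower at an adjusted p under 0.05 and 0 higher, 3 were called, and the median log2 ratio was -0.18. Their summed intensity was 112300, 108000 and 110200 in C2C12-pMirn378 cells, against 129800, 120000 and 127800 in C2C12-pMirn0 cells. *Mfap5*, a glycoprotein of microfibrils, had intensities of 129.8, 113 and 127 in C2C12-pMirn378 cells, against 342, 363 and 448 in C2C12-pMirn0 cells (log2 ratio -1.63, SE 0.16, adjusted p = 1.89e-06). The other probe set of *Mfap5*, which was not dim, gave -0.755 and did not pass the wider threshold. *Vcan*, the large proteoglycan versican, had an AEV of 1880.4 ± 98.2 in C2C12-pMirn378 cells and 3132 ± 45.9 in C2C12-pMirn0 cells (log2 ratio -0.74, SE 0.06, adjusted p = 1.74e-07). *Postn*, periostin, had 548, 564 and 670.1 in C2C12-pMirn378 cells, against 1123, 1040.1 and 1139.8 in C2C12-pMirn0 cells (log2 ratio -0.89, SE 0.09, adjusted p = 3.58e-06), whereas at d0 it was higher in C2C12-pMirn378 cells (log2 ratio 1.84, adjusted p = 1.69e-11). The lines did not overlap for any of these 3 genes. *Fbln5*, *Prelp*, *Bgn*, *Fbln2*, *Dcn*, *Nid2* and *Mgp* passed the wider threshold, with log2 ratios from -1.24 for *Fbln5*, an elastic fibre protein, to -0.38 for *Mgp*, an inhibitor of calcification. The count of 10 came to between 5 and 6 when replicate 1 or 3 of either line was left out.

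Of 23 collagen chains 4 were lower and 2 higher at the wider threshold, with a median of -0.09. *Col12a1*, which lies on the surface of collagen fibrils, had 1190.4, 1184 and 1256 in C2C12-pMirn378 cells, against 2969, 3482 and 2962 in C2C12-pMirn0 cells (log2 ratio -1.37, SE 0.10, adjusted p = 3.39e-08). *Col1a1*, a chain of type I collagen, had an AEV of 553 ± 56.3 in C2C12-pMirn378 cells and 1032 ± 19.3 in C2C12-pMirn0 cells (log2 ratio -0.91, SE 0.12, adjusted p = 1.27e-04), and *Col6a1* a log2 ratio of -0.37, adjusted p = 0.0488. The other probe set of *Col1a1* gave a log2 ratio of -0.96 and did not pass the wider threshold. *Col6a3* and *Col5a3* were higher, with 0.40, adjusted p = 0.0263 and 0.43, adjusted p = 0.00397, so the chains of type VI collagen did not move one way. The 2 higher collagens came to 1 without replicate 1 or 2 of the C2C12-pMirn0 cells or replicate 1 or 3 of the C2C12-pMirn378 cells. Of 28 matrix proteases and their inhibitors 4 were lower and 0 higher. *Mmp2*, gelatinase A, had 823, 922 and 872 in C2C12-pMirn378 cells, against 2148, 2035 and 2162 in C2C12-pMirn0 cells (log2 ratio -1.28, SE 0.096, adjusted p = 5.04e-08), and its second probe set gave -1.23, adjusted p = 3.57e-09. The level of *Mmp2* at d6 was 2979 ± 134 in C2C12-pMirn378 cells and 3219.6 ± 67.1 in C2C12-pMirn0 cells, and the log2 ratio there was -0.11, adjusted p = 0.76. *Mmp13*, collagenase 3, was near the lower end of the scale, with 12.1, 15.2 and 16.5 in C2C12-pMirn378 cells, against 156, 119 and 119 in C2C12-pMirn0 cells (log2 ratio -3.17, SE 0.53, adjusted p = 0.00156), and its log2 ratio was -1.38 when values under 50 were set to 50. *Adam12*, a metalloprotease of fusing myoblasts, and *Timp3*, a tissue inhibitor, had -0.82, adjusted p = 0.00903 and -0.48, adjusted p = 0.00452.

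Of 27 cadherins 1 was lower and 0 higher at the wider threshold, with a median log2 ratio of -0.019, and of 28 integrins and laminins 0 passed in either direction, with a median of -0.0071. Dim members numbered 16 among the cadherins and 9 among the integrins and laminins. *Cdh11*, a cadherin of mesenchymal cells and osteoblasts, was the 1 lower cadherin and had the smallest adjusted p of the genes named here, with 819, 793 and 866 in C2C12-pMirn378 cells, against 3662, 3897 and 3287 in C2C12-pMirn0 cells (log2 ratio -2.13, SE 0.11, adjusted p = 1.54e-10). A second probe set gave a log2 ratio of -1.99, adjusted p = 5.67e-09. *Cdh11* was also lower in C2C12-pMirn378 cells at d0 (-2.86, adjusted p = 1.89e-13), at d6 (-1.11, adjusted p = 4.13e-06) and at d3 with BMP2 (-1.78, adjusted p = 1.89e-10). *Ms4a4d*, a membrane protein of the MS4A family, had 345, 350 and 377.9 in C2C12-pMirn378 cells, against 1732, 1319 and 1975 in C2C12-pMirn0 cells (log2 ratio -2.21, SE 0.20, adjusted p = 9.29e-07). It too was lower at d0, at d6 and at d3 with BMP2, with log2 ratios of -1.75, -2.08 and -2.41, each past an adjusted p under 0.05. Both genes were thus lower in C2C12-pMirn378 cells before differentiation began and on each later set of arrays, d6 with BMP2 included (-1.48, adjusted p = 5.90e-09 for *Cdh11* and -1.56, adjusted p = 1.30e-05 for *Ms4a4d*).

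Among secreted signals, *Bmp4*, a ligand of the BMP family, was the 1 lower member of 20 BMP ligands and receptors, with 0 higher. Its intensities were 662, 789.6 and 834 in C2C12-pMirn378 cells, against 2088, 1849 and 1767 in C2C12-pMirn0 cells (log2 ratio -1.32, SE 0.23, adjusted p = 0.00211). It was lower at d0 as well (-1.57, adjusted p = 2.31e-04) but not at d6 (0.089, adjusted p = 0.944). The receptors *Bmpr1a*, *Bmpr2*, *Acvr1* and *Acvr2a* had log2 ratios between -0.18 and -0.095, and none passed. Other probe sets of *Acvr1* gave 0.091 and 0.17, and neither was called. Of 26 BMP antagonists and target genes 2 were lower and 0 higher, 14 lay above 0 and the median log2 ratio was 0.043. *Id3*, an inhibitor of myogenic factors and a common readout of BMP signalling, had 374, 323 and 373 in C2C12-pMirn378 cells, against 826, 827 and 901 in C2C12-pMirn0 cells (log2 ratio -1.26, SE 0.073, adjusted p = 1.46e-09), and *Fst*, follistatin, had a log2 ratio of -0.32, adjusted p = 0.0181. *Id3* did not pass at d0 (0.12, adjusted p = 0.456) or at d6 (-0.012, adjusted p = 0.98), and its AEV at d0 was 6788 ± 296 in C2C12-pMirn378 cells and 6235 ± 136 in C2C12-pMirn0 cells, far above that at d3. The count of 2 came to 1 when any array other than replicate 1 of the C2C12-pMirn378 cells was left out. Of 18 members of the TGF-beta and activin group 2 were lower, *Inhbb*, an activin subunit, with -0.70, adjusted p = 3.53e-04, and *Ltbp2*, a latent TGF-beta binding protein, with -0.59, adjusted p = 3.04e-04. The other probe set of *Inhbb*, which was not dim, gave -0.36 and did not pass the wider threshold.

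Growth factors and their receptors went both ways, with 4 of 41 lower and 2 higher. *Igf1*, the insulin-like growth factor that promotes myotube growth, had 144, 176 and 146 in C2C12-pMirn378 cells, against 531, 533 and 514 in C2C12-pMirn0 cells (log2 ratio -1.76, SE 0.31, adjusted p = 0.00227). Its AEV was 1024 ± 82.7 in C2C12-pMirn378 cells and 1485 ± 56.6 in C2C12-pMirn0 cells at d6, where the log2 ratio was -0.54, adjusted p = 0.575. *Igfbp4*, a binding protein of IGF1, was called lower (-1.09, adjusted p = 3.43e-05), *Igfbp3* and *Pdgfrb* passed the wider threshold (-1.35, adjusted p = 0.0232 and -0.44, adjusted p = 0.00921), and *Igfbp2* and *Igfbp6* were higher (0.38, adjusted p = 0.0132 and 0.38, adjusted p = 0.00464). Without replicate 2 of either line the count of lower members was 2, and that of higher members was 1 without replicate 1 or 2 of the C2C12-pMirn0 cells or replicate 1 or 3 of the C2C12-pMirn378 cells. Of 33 chemokines and acute phase genes 4 were lower and 0 higher. *Ptx3*, a pentraxin of the acute phase, had -1.08, adjusted p = 6.77e-06, *Ptgs2*, cyclooxygenase 2, -0.64, adjusted p = 1.94e-05, and the chemokines *Cxcl5* and *Cxcl12* -0.91, adjusted p = 0.0103 and -0.76, adjusted p = 0.00638. The other probe set of *Ptgs2*, which was not dim, gave -0.087 and did not pass the wider threshold. *Cxcl12* was higher in C2C12-pMirn378 cells at d6, with a log2 ratio of 1.11, adjusted p = 2.50e-04. *Wnt4*, a Wnt ligand, had 31.9, 76.1 and 24.3 in C2C12-pMirn378 cells, against 141, 177 and 115 in C2C12-pMirn0 cells (log2 ratio -1.87, SE 0.29, adjusted p = 5.71e-04), and within 51 genes of Wnt signalling 2 were lower, *Wnt4* and *Nkd2*, and 2 higher, *Sfrp2* and *Fzd7* (log2 ratios 0.79 and 0.24). Of the 51 genes 21 were dim, *Nkd2* among them. The log2 ratio of *Nkd2* was -0.23, adjusted p = 0.632, with values under 50 set to 50. The 2 lower Wnt genes came to 1 without replicate 1 of the C2C12-pMirn0 cells or replicate 2 of the C2C12-pMirn378 cells. The 2 higher ones came to 0 without replicate 3 of the C2C12-pMirn0 cells, and to 1 without replicate 1 or 2 of the C2C12-pMirn0 cells or replicate 2 or 3 of the C2C12-pMirn378 cells.

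The largest negative log2 ratios came from low intensities. *Slc6a2*, the noradrenaline transporter, had 4.91, 12.2 and 3.34 in C2C12-pMirn378 cells, against 106, 107 and 102 in C2C12-pMirn0 cells (log2 ratio -4.16, SE 0.51, adjusted p = 4.03e-05). Of the 3 other probe sets of *Slc6a2*, which did not pass, the brightest gave -0.43, adjusted p = 0.474, another -0.79, and the third, a dim one, 0.0043. *P2rx3*, an ATP-gated channel, had 5.28, 43.7 and 12.7 in C2C12-pMirn378 cells, against 181, 219.9 and 155 in C2C12-pMirn0 cells (log2 ratio -3.68, SE 0.63, adjusted p = 0.00212). The other 2 probe sets of *P2rx3* gave -2.09, adjusted p = 0.0717 and -1.81, adjusted p = 0.282. The arrays of the C2C12-pMirn378 cells lay in the dim range on the called probe set of both genes, and with values under 50 set to 50 the log2 ratios were -1.07 and -1.88. *Hsd11b1*, the enzyme that reactivates glucocorticoids, was well measured, with 246, 268 and 255 in C2C12-pMirn378 cells, against 715, 733 and 725 in C2C12-pMirn0 cells (log2 ratio -1.50, SE 0.13, adjusted p = 3.19e-07), and each line spanned a narrow range. It was lower at d6 too (-1.10, adjusted p = 3.64e-05) but not at d3 with BMP2 (0.091, adjusted p = 0.782). *Apoe*, apolipoprotein E, had -1.98, adjusted p = 0.00246, and *Npy1r*, a receptor of neuropeptide Y, -1.57, adjusted p = 4.27e-04. Of the largest positive ratios, those of *Ppp1r14a* (3.37), *Pbx4* (2.79), *Slc6a15* (2.60), *Prkd3* (2.17) and *Dach1* (2.03) belonged to dim probe sets. *Ica1*, a protein of secretory vesicles, was outside the cell cycle lists, with 125, 105 and 120.3 in C2C12-pMirn378 cells, against 54.2, 48.6 and 62.4 in C2C12-pMirn0 cells (log2 ratio 1.09, SE 0.13, adjusted p = 3.72e-05). The brighter of its 2 probe sets gave 0.60, adjusted p = 0.149.

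Of 20 measured enzymes of cholesterol synthesis 7 were higher at the wider threshold and 0 lower, 19 lay above 0 and the median log2 ratio was 0.35, but 0 reached the stricter call. Their summed intensity was 38040, 36740 and 40070 in C2C12-pMirn378 cells, against 29450, 29670 and 31850 in C2C12-pMirn0 cells. *Idi1*, which isomerises isopentenyl diphosphate, had 2722, 2209.5 and 2538 in C2C12-pMirn378 cells, against 1601, 1614 and 1561 in C2C12-pMirn0 cells (log2 ratio 0.64, SE 0.12, adjusted p = 0.00638). *Lss*, lanosterol synthase, had 0.77, adjusted p = 0.00723, and *Nsdhl*, of the later steps, 0.44, adjusted p = 0.00196. At d0 the median of the 20 genes was -0.20, with 3 lower and 0 higher, and at d6 it was 0.14, with 0 either way. Over the first 3 days their median log2 ratio of d3 over d0 was 0.60 in C2C12-pMirn378 cells and 0.18 in C2C12-pMirn0 cells. Of 16 genes of fatty acid synthesis 4 were higher, *Elovl6*, a chain elongase, with an AEV of 744 ± 23.0 in C2C12-pMirn378 cells and 477 ± 28.8 in C2C12-pMirn0 cells (log2 ratio 0.64, SE 0.09, adjusted p = 2.14e-04), and *Fasn*, *Fads2* and *Scd1* with log2 ratios of 0.43, 0.40 and 0.33. Without replicate 1 of the C2C12-pMirn378 cells the counts were 4 for cholesterol synthesis and 1 for fatty acid synthesis, and the fatty acid count was also 1 without replicate 1 of the C2C12-pMirn0 cells or replicate 3 of the C2C12-pMirn378 cells, and 2 without replicate 2 or 3 of the C2C12-pMirn0 cells.

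Few muscle genes differed detectably between the lines at d3. Of 46 measured genes of the sarcomere and the contractile apparatus 1 was lower and 0 higher at an adjusted p under 0.05, the median log2 ratio was 0.065, and 33 lay above 0. Their summed intensity lay between 521300 and 548000 in C2C12-pMirn378 cells and between 468800 and 537000 in C2C12-pMirn0 cells, with overlap. The 1 lower gene was *Myh7*, the slow myosin heavy chain, with an AEV of 5352 ± 502 in C2C12-pMirn378 cells and 8358 ± 595 in C2C12-pMirn0 cells (log2 ratio -0.64, SE 0.14, adjusted p = 0.0162). It did not pass without replicate 3 of the C2C12-pMirn0 cells or replicate 1 or 3 of the C2C12-pMirn378 cells. *Myh8*, the perinatal myosin, had an AEV of 1573 ± 295 in C2C12-pMirn378 cells and 4300.3 ± 231 in C2C12-pMirn0 cells and did not pass (log2 ratio -1.47, SE 0.65, adjusted p = 0.48). That SE was estimated over all 10 groups, so the miss does not show equal levels of *Myh8* at d3. The genes stood higher at d3 than at d0 in both lines, and the median log2 ratio of d3 over d0 of the 46 genes was 3.15 in C2C12-pMirn378 cells and 2.91 in C2C12-pMirn0 cells. By d6, 45 of the 46 had risen at an adjusted p under 0.05 in C2C12-pMirn0 cells (21.3% of all genes rose). Of 19 myogenic regulators 0 passed in either direction in limma, and at an unadjusted p under 0.05 1 was higher and 1 lower. Of 15 genes of myoblast fusion 2 were lower, *Adam12* and *Jam3* (log2 ratio -0.39, adjusted p = 0.0425). That count came to 0 without replicate 3 of the C2C12-pMirn0 cells or replicate 2 of the C2C12-pMirn378 cells, and to 1 without replicate 2 of the C2C12-pMirn0 cells or replicate 1 or 3 of the C2C12-pMirn378 cells. Genes of energy metabolism, the field in which *Ppargc1b* and its microRNA are best known, showed no calls: 0 of 35 genes of the respiratory chain, 0 of 24 of fatty acid oxidation and 0 of 11 around the PGC-1 coactivators passed, with medians of 0.096, 0.034 and 0.033 and with 5, 1 and 2 genes at an unadjusted p under 0.05 in either direction. Among 29 genes of hypoxia and glycolysis *Ldha*, lactate dehydrogenase A, was higher (0.33, adjusted p = 0.0286) and *Ero1a*, an oxidase of the endoplasmic reticulum, lower (-0.37, adjusted p = 0.0359). Neither passed without replicate 1 or 2 of the C2C12-pMirn0 cells or replicate 1 or 3 of the C2C12-pMirn378 cells. Of 28 immediate early genes *Egr3*, *Fosl1* and *Dusp4* were higher, with log2 ratios of 0.56, 0.56 and 0.45, and *Ier3* was lower, with -0.27. Without replicate 1 of either line 1 of the 3 passed, and *Ier3* passed only where replicate 1 of the C2C12-pMirn0 cells was left out, of the 6 such omissions.

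Genes that had been reported as targets of miR-378, or that the study had weighed as such, held no calls at d3. Of 21 measured members 0 passed an adjusted p under 0.05 in either direction in limma, 0 were higher and 2 lower at an unadjusted p under 0.05, the median log2 ratio was 0.033 and 10 lay below 0. On the arrays of d0 1 was higher and 6 lower (1.06% and 2.36% of all genes), and at d6 1 and 0 (0.841% and 0.302%). With BMP2, 1 was higher and 7 lower at d3 (8.47% and 7.81%), and 2 and 3 at d6 (5.79% and 4.92%). The study had picked some of these members from the same arrays, in part because they were lower at d0 or with BMP2, so the list is not independent of them. *Msc*, musculin, a repressor of myogenic factors, had 206, 124 and 106 in C2C12-pMirn378 cells, against 97.2, 125 and 76.3 in C2C12-pMirn0 cells (log2 ratio 0.51, adjusted p = 0.66). The values of *Igf1r*, the IGF1 receptor, *Grb2*, a receptor adaptor, and *Ksr1*, a scaffold of the MAP kinase pathway, were -0.16, adjusted p = 0.518, 0.07, adjusted p = 0.923 and 0.091, adjusted p = 0.936. *Npnt*, nephronectin, had -0.062, adjusted p = 0.93, and *Galnt7*, an enzyme of mucin-type glycosylation, -0.17, adjusted p = 0.784. *Grem1*, a BMP antagonist, had 1280.4, 1170.3 and 1163 in C2C12-pMirn378 cells, against 1098, 919.6 and 1040.3 in C2C12-pMirn0 cells (0.24, adjusted p = 0.599). *Wnt5a* was dim, with -0.68, and *Wnt10a* had -0.18, adjusted p = 0.864. *Fgf7* had the smallest adjusted p of the list (log2 ratio -0.52, adjusted p = 0.161), and *Ereg* and *Cck*, epiregulin and cholecystokinin, had 0.089 and -0.22. A test that these genes miss does not show equal levels: the SE of the log2 ratio was 0.29 for *Msc*, 0.076 for *Igf1r* and 0.13 for *Grem1*. *Ppargc1b*, whose intron holds miR-378, had a log2 ratio of 0.13, adjusted p = 0.896, which says nothing of the miR-378 made by the construct.

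Of the markers of cells other than muscle, those of fibroblasts were partly present. Of 11 measured members 3 were dim (*Lum*, *Thy1* and *Tcf21*), and 3 were lower in C2C12-pMirn378 cells (*Col1a1*, *Dcn* and *Pdgfrb*, which also stand in the lists above), with summed intensity between 46740 and 52450 in C2C12-pMirn378 cells and between 46870 and 53230 in C2C12-pMirn0 cells. Without replicate 2 of the C2C12-pMirn0 cells 1 of the 3 passed. Their part in the lower matrix genes was not tested. Markers of endothelial cells were dim in 9 of 10, of macrophages in 8 of 11, of chondrocytes in 9 of 11, of epithelial cells in 6 of 10, of neurons and glia in 6 of 12 and of adipocytes in 5 of 9, with 0 members of the first 4 lists and of the adipocyte list past an adjusted p under 0.05 and 1 lower in the list of neurons and glia, *Ncam1* (-0.28, adjusted p = 0.00542), which muscle also expresses. Of 21 smooth muscle genes 1 was lower (*Tagln*, -0.67, adjusted p = 3.99e-05), and of 19 bone genes 1, *Col1a1*. *Sp7*, the osteoblast factor osterix, and *Alpl*, alkaline phosphatase, had log2 ratios of -0.22, adjusted p = 0.866 and 0.097, adjusted p = 0.971. Of 34 interferon-response genes, 17 of which were dim, 0 passed, and at an unadjusted p under 0.05 1 was higher and 1 lower.

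These calls rest on a spread estimated over all 10 groups of the series: with the 6 arrays of the comparison alone, 0 probe sets were called in limma, while 2002 higher and 1430 lower ones had an unadjusted p under 0.05. Without replicate 1 of the C2C12-pMirn378 cells, which was the highest in most mitotic genes, 60 probe sets were called higher, and the mitosis list still held between 35 and 42 members past an adjusted p under 0.05 whichever array was left out.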

How the data were processed

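RNA of 30 samples (2 lines, 5 conditions, 3 arrays each) was hybridised to Affymetrix Mouse Genome 430 2.0 arrays after 3′ in vitro transcription labelling. The authors deposited 1 linear intensity per probe set and array; their methods name GeneChip Command Console for quantification of the scans, R 2.4.1 with RMA summaries and quantile normalization, and limma. The deposited arrays do not share 1 distribution, since their medians lie between 68.0 and 82.7, so the last step behind these values is not settled. Groups were taken from the sample labels. Values were taken as log2 without an offset and fitted as 10 group means in limma 3.58.1 (R 4.3.3) over all 30 arrays, and p-values were adjusted by Benjamini-Hochberg over 45101 probe sets. Calls needed a log2 ratio beyond 0.6 at an adjusted p under 0.005, and a wider threshold of an adjusted p under 0.05 was used to count list members. Of the probe sets 34958 carry 1 gene symbol, 932 several and 9211 none in the platform annotation, and only the first were named. Where a gene had several such probe sets, lists and gene counts read the brightest one on average, not ending in _x_at where another exists. Genes named for the size of their change were read on the called probe set. Genes of the study were read on the one it names, apart from *Col1a1*, which was read on its brightest. Genes were named as the 15 largest rises and the 15 largest falls among called probe sets that were not dim, the 4 members of each list with the smallest adjusted p, and genes that the study discusses; genes outside this rule (dim probe sets, members that passed a list's threshold, markers, *Ndc80*, *Bub3*, *Bub1b* and *Kif4*) were chosen after their values were seen. The comparison, the members and the lists were chosen with earlier results of these data known. The precision is limited by the 3 arrays per group. Promoters came from the RefSeq table of GRCm38.p6. Alternatives were another scaling, offset, floor, variance model, array weights, replicate block, choice of arrays, the omission of dim probe sets and of each array in turn. The script was tested on simulated data.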

Additional observations from a re-analysis of the deposited data

Results flagged for a closer look

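The difference between the lines at d3 without BMP2 was set against that on other arrays by interaction contrasts in limma, over all 45101 probe sets, for the genes named by size and those the study discusses. The values below are differences between 2 log2 ratios, each past an adjusted p under 0.005 and a size of 0.6. Over all probe sets 634 interactions with d0, 81 with d6 and 1762 with BMP2 passed an adjusted p under 0.05. For called genes the arrays of d3 also made the call, so these values describe them.

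Against d0, the line difference at d3 was more positive for the mitotic genes *Cdc20* (0.80), *Bub1* (0.97), *Birc5* (0.98), *Mki67* (1.00), *Ccnb2* (1.16) and *Ttk* (1.21), for *Dscc1* (2.58) and *Ica1* (1.53), and for *Grem1* (1.26), which was lower in C2C12-pMirn378 cells at d0. It was more negative for *Hsd11b1* (-1.24) and *Col12a1* (-0.92).

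Against d6 without BMP2, it was more negative for *Slc6a2* (-4.96), *Abca8a* (-1.37), *Mmp2* (-1.17), *Cdh11* (-1.02) and *Col12a1* (-1.01), and more positive for *Dscc1* (1.26).

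The line difference at d3 with BMP2, less that at d3 without, was positive for the mitotic genes *Bub1* (0.92), *Cdc20* (1.06), *Mki67* (1.15), *Ube2c* (1.19) and *Birc5* (1.61). Genes lower without BMP2 also had positive values, *Mmp2* (1.01), *Col12a1* (1.26), *Hsd11b1* (1.59), *Npy1r* (2.05), *Wnt4* (2.76) and *Slc6a2* (3.57), as did *Npnt* (0.61) and *Sp7* (1.55), which did not differ detectably without BMP2. It was negative for *Myog* (-0.64), *Ica1* (-1.09), *Dscc1* (-1.31), *Grem1* (-1.33) and *Ereg* (-1.41).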

How the results depend on the processing

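Of 1723 values of named genes under the alternatives, 1558 kept their direction and side of the threshold, 131 no longer passed, 28 newly passed and 6 changed sign. None of the 6 had been called: *Alpl* had -0.041 with values under 50 set to 50 and -0.15 to 0.38 as each array was left out (-0.15 without replicate 3 of the C2C12-pMirn0 cells), *Ksr1* -0.033 to 0.18 (lowest without replicate 2 of the C2C12-pMirn378 cells), *Sp7* -0.42 to 0.075 (highest without replicate 1 of the C2C12-pMirn378 cells), *Cck* -0.46 to 0.098 (highest without replicate 2 of the C2C12-pMirn0 cells), and *Wnt5a* 0 at the floor of 50. The cause was not tested.

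With dim probe sets left out, 441 probe sets were higher at the wider threshold (283 with all), and interactions numbered 1149 with d0, 142 with d6 and 2702 with BMP2. With only the arrays of each comparison, 0 were called lower and 0 higher, 0 and 0 passed the wider threshold, and interactions numbered 104, 36 and 621; that fit has fewer samples. With only the untreated and d0 arrays, 52 were called lower and 60 higher, 137 were lower at the wider threshold, and interactions numbered 324 with d0 and 31 with d6. With trend and robust estimation 143 interactions with d6 passed. With values under 50 set to 50, 150 were called lower, 499 lower and 523 higher passed the wider threshold, and interactions numbered 1455, 327 and 2997. Of the lists, mitosis and spindle held 39 higher members with only the untreated and d0 arrays, DNA replication 10, cholesterol synthesis 5, fatty acid synthesis 1 and matrix glycoproteins 3.

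Leaving out each array gave 53 to 76 called lower and 60 to 97 called higher, 164 to 192 and 172 to 258 at the wider threshold, 388 to 568, 51 to 83 and 1315 to 1574 interactions, 16644 to 16705 changes from d0 to d6 and 15365 to 15517 BMP2 responses in C2C12-pMirn0 cells. Without replicate 2 of the C2C12-pMirn0 cells 53 were called lower, 164 were lower at the wider threshold and 51 interactions with d6 and 422 with d0 passed. Without replicate 3 of the C2C12-pMirn378 cells 68 were called higher and 388 interactions with d0 passed, and without replicate 1 of that line 60 were called higher and 172 passed the wider threshold. *Apoe*, *Bmp4*, *Cilp*, *Igf1*, *Mcm5*, *Mmp13* and *P2rx3* each missed the stricter call, but not the wider threshold, in 6 or 7 of 15 alternatives. *Bmp4*, *Igf1* and *Mmp13* missed the stricter call whichever array was left out. These counts leave aside the fit on only the arrays of the comparison, where 0 probe sets passed either threshold.

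At d3 without BMP2, same-numbered arrays of the 2 lines deviated from their group means with correlations of 0.12, -0.007 and 0.0004. These values cannot settle whether replicates were paired over the series. With the replicate block 85 were called lower and 104 higher, and 281 and 322 passed the wider threshold (251 and 283 without it). Probe sets of low mean intensity have a wide spread, which limits what could be called there.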
